A study of Mus musculus with 23 samples.

Results

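The lung with allergic airway disease (AAD) was compared between offspring of PM2.5-exposed dams and offspring of saline-exposed dams. The comparison used the 4 PM-OVA and 5 Sham-OVA RNA libraries, 9 of the 23 lung libraries of the study, chosen by the maternal exposure and the challenge given in their labels. The offspring were female Balb/c mice of 13 weeks. Their dams had received PM2.5, the fine fraction of airborne particulate matter, in saline (PM-OVA) or saline alone (Sham-OVA) by the intranasal route before mating, throughout gestation and until the pups were weaned, and no offspring was itself given PM2.5. All 9 were sensitised to ovalbumin (OVA), a protein of egg white, by injection with aluminium hydroxide and were then challenged with nebulised OVA, and lungs were collected the day after the last challenge. The study describes the sequenced lungs as taken after a lung function test, done under anaesthesia with rising doses of methacholine. Its methods place the collection of bronchoalveolar lavage fluid directly after that test. A further 7 Sham and 7 PM libraries came from offspring of the same dam groups that received the control challenge. This challenge is named PBS in the labels and saline in the study's methods. These libraries served to ask whether the maternal effect in the challenged lung differed from that in the unchallenged lung. They also gave the level of some genes in saline lungs and entered an alternative fit of the main comparison with all 4 groups. The tissue was lung, with the abbreviation RML in the labels and right lower lobe in the methods. The labels do not say which offspring had the same dam, so the tests measure the spread between these libraries only.

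Sensitisation and challenge with OVA is a model of allergic asthma. Dendritic cells present the allergen to CD4 T cells of the Th2 type, whose cytokines interleukin (IL)-4, IL-5 and IL-13 drive antibody production by plasma cells, recruitment of eosinophils by chemokines such as Ccl11 and Ccl24, and conversion of airway secretory cells into mucus-producing goblet cells. The conducting airway is lined by club and goblet cells, which secrete, and by ciliated cells, which move the mucus. Maternal exposure to particulate matter is studied as a factor that could set how strongly the offspring's airway responds to an allergen later in life.

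The unit was RPM, the reads on a gene scaled to a fixed library total without correction for gene length, so levels are compared between libraries and not between genes. Reads on genes ranged from 10345173 to 12185451 in 4 Sham-OVA libraries and were 2298645 in Sham-OVA replicate 3. They were 12355561 and 11073754 in PM-OVA replicates 1 and 2, and 5922469 and 4324326 in PM-OVA replicates 3 and 4. A single read was worth 0.0672 to 0.0797 RPM in the 6 deeper libraries and 0.133, 0.182 and 0.311 RPM in the 3 shallow ones, where low genes are therefore known less precisely. Lung markers were high in all 9 libraries, with Sftpc, the surfactant protein of alveolar type 2 cells, at 13569 to 31953 RPM and Ager, a marker of alveolar type 1 cells, at 1677 to 2671 RPM. Xist, transcribed from the inactive X chromosome of females, was at 174 to 499 RPM, and the 4 Y-linked genes of the sex check had 0 reads. Principal component 1 held 68.0% of the variance and separated the 3 shallow libraries, with scores of 56.3 to 121.8, from the other 6, with scores of -85.8 to -17.5. The maternal groups did not differ along it (difference -0.91, exact permutation test over every split of the 9 libraries, two-sided, p = 0.992). Principal component 2 held 9.53% of the variance and differed by 32.8 between the groups (exact permutation test, p = 0.0476, adjusted over 3 components p = 0.143), but the groups overlapped along it, since Sham-OVA replicate 5 scored above PM-OVA replicates 1 and 4.

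**Figure D1:**
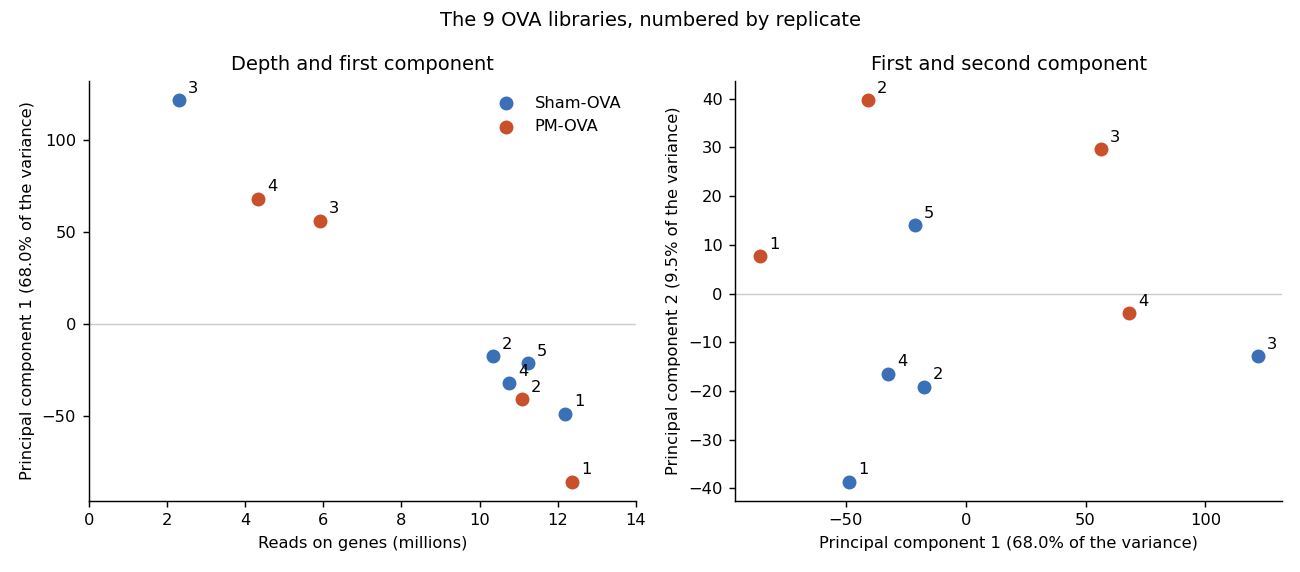
The left panel plots principal component 1 of log2(RPM + 0.5) against the reads on genes and the right panel plots principal component 2 against component 1, with 1 point per library (blue Sham-OVA, red PM-OVA, numbered by replicate). The 3 shallow libraries sit apart at high component 1, and neither component separates the groups completely.

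No gene differed between PM-OVA and Sham-OVA at an adjusted p under 0.05. Genes that reached 0.5 RPM in 4 or more of the 9 libraries numbered 15323, of which 0 (0.0%) were called by limma with Benjamini-Hochberg (BH) adjustment, and the smallest adjusted p was 0.9999. At an unadjusted p under 0.05 there were 255 genes (1.66%), 158 with a higher PM-OVA mean (1.03%) and 97 with a lower one (0.633%), and edgeR on the recovered reads likewise called 0 genes, with 372 at an unadjusted p under 0.05. The 1.66% by limma is less than the share of 0.05 that chance alone gives on average at this threshold. DESeq2 on the recovered reads, the tool the study used, called 1 gene, Pdxk. The differences were small: the median log2 fold change was 0.00 and its median standard error (SE) 0.36, an absolute log2 fold change above 1 was reached by 186 genes (1.21%), and the PM-OVA mean was the higher one for 7788 genes (50.8%). The precision was limited. The 95% interval of the log2 fold change reached a median of 0.80 to either side, and for 7640 genes (49.9%) it lay within 1 of 0, which leaves differences of this size undecided for the remaining genes. Fold changes here are on the scale of log2(RPM + 0.5), which understates those of low genes. A mean called higher or lower is likewise the mean of log2(RPM + 0.5), whose direction can differ from that of the mean RPM. Because no gene passed the test, the values below describe these 9 libraries, and a mean called higher or lower is not a change that was established.

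A total of 54 gene lists of cell types and pathways was examined, each by the number of its members with a higher PM-OVA mean, against 50.8% of all genes, and by its median log2 fold change, against 0.00 for all genes. The medians ran from -0.85 for mast cell genes to 1.05 for motile cilium genes. The lists with a median above 0.5 were those of the airway epithelium (motile cilium, goblet cell, club cell), the circadian clock, the mitochondrial genome and cardiac muscle. Those below -0.5 were mast cell, mitosis and adipocyte genes. With 1 library left out the median changed sign for 32 of the 54 lists, among them 29 of the 30 lists with a median within 0.15 of 0. It changed sign for 0 of the 9 lists just named, which were picked for medians far from 0, so this was largely set by that choice. The median of all genes itself ran from -0.15 to 0.11 with 1 library left out. In bulk tissue, fewer cells of a type and less RNA per cell cannot be told apart.

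**Figure D2:**
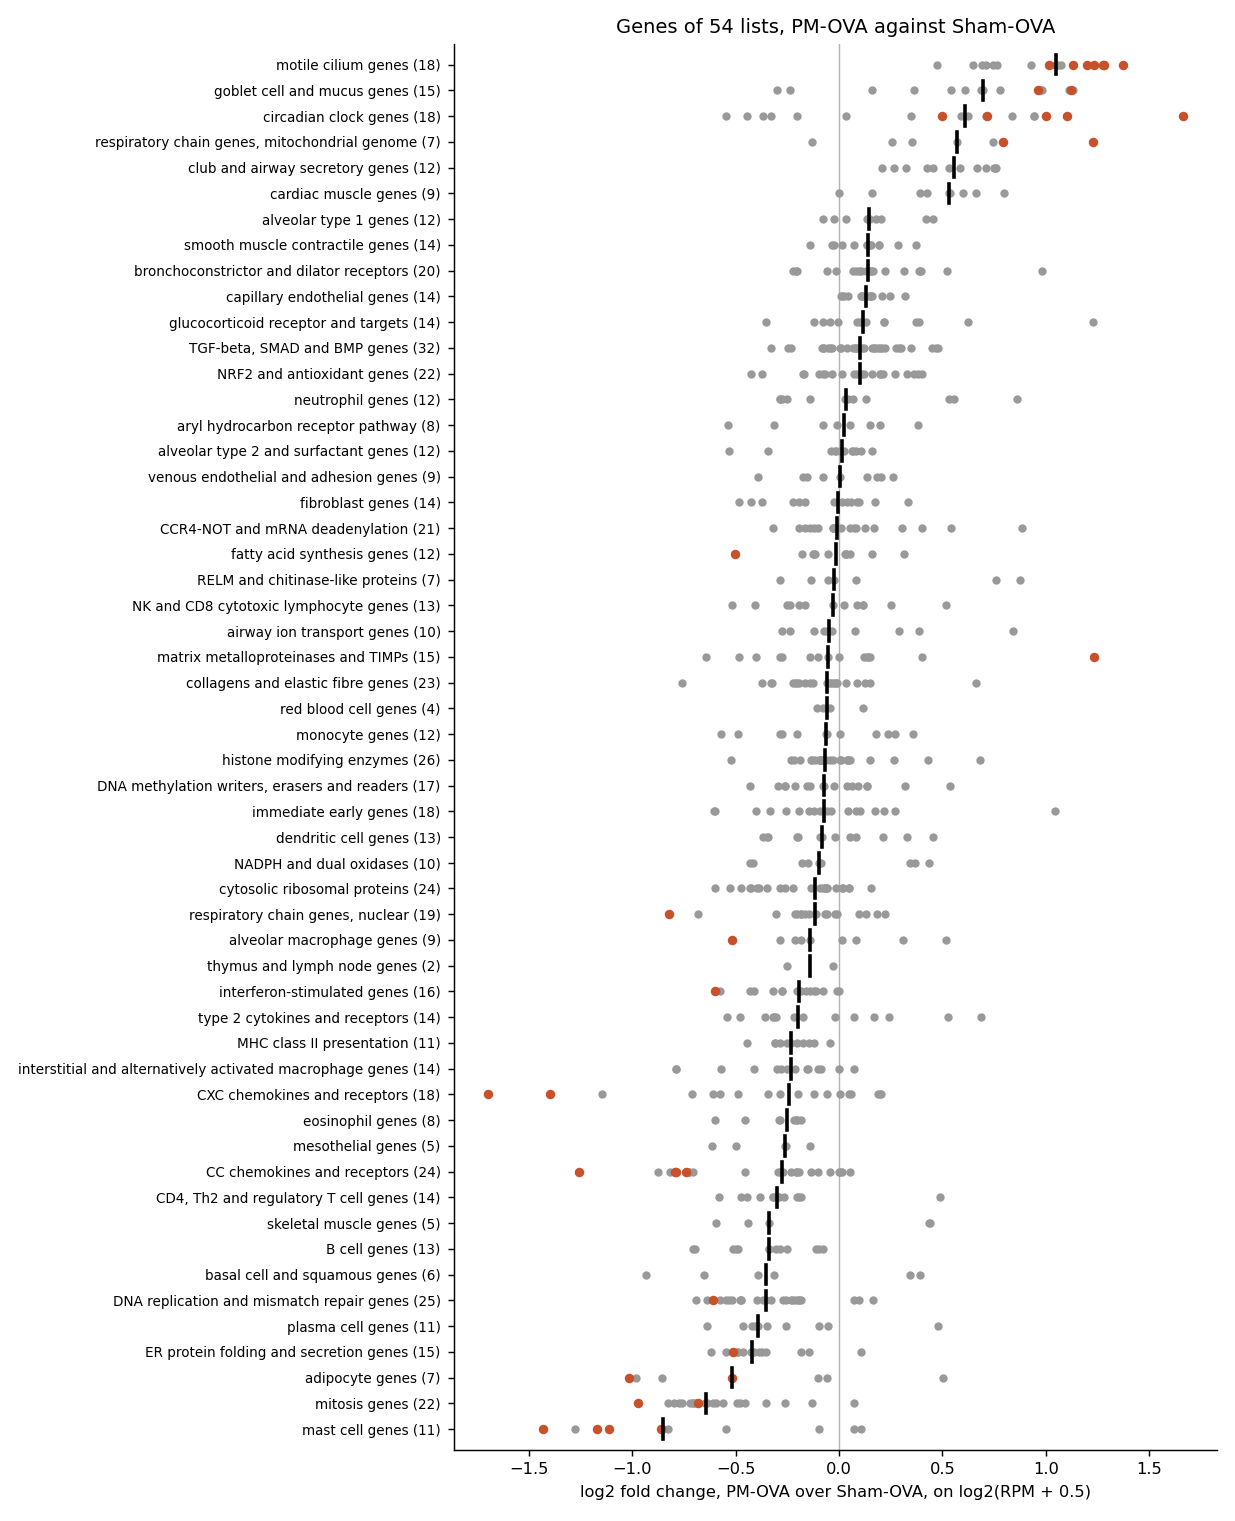
Each row is a gene list (number of members tested in brackets), each point a gene by its log2 fold change of PM-OVA over Sham-OVA on the horizontal axis, red at an unadjusted p under 0.05 by limma, and the black bar marks the median of the list. Motile cilium genes lie highest, with a median of 1.05, and mast cell genes lowest, with -0.85, while most of the other medians fall close to 0.

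Genes of motile cilia, the beating projections of airway ciliated cells, had a higher PM-OVA mean for 18 of the 18 members tested, with log2 fold changes from 0.47 (Tppp3) to 1.38 (Dnah9). Of the other 4 members of this list, Mcidas and Tubb4b were below the filter and Dnai1 and Dnai2 were not matched by symbol. An unadjusted p under 0.05 was reached by 7 of the 18, against 1.03% of all genes in this direction, and an adjusted one by 0. Foxj1, the transcription factor that switches on the genes for motile cilia, was at 19.2, 82.1, 136, 69.2 and 153 RPM in Sham-OVA and 109, 255, 215 and 145 RPM in PM-OVA, in order of replicate. All 4 PM-OVA libraries were thus above 3 of the 5 Sham-OVA libraries, and Sham-OVA replicates 3 and 5 overlapped the PM-OVA group (log2 fold change 1.20, 95% interval 0.02 to 2.38). Dnah9, a heavy chain of the outer dynein arms that power the beat, was at 2.36, 8.12, 10.6, 7.97 and 21.5 RPM in Sham-OVA and 12.8, 32.3, 26.8 and 21.6 RPM in PM-OVA, and only Sham-OVA replicate 5 reached the PM-OVA values. The other 5 were Dnah11 (1.28), another such chain, Ccdc39 (1.28), which sets the spacing of the dynein arms, Rsph4a (1.23) of the radial spokes, the axonemal adenylate kinase Ak7 (1.02) and Cfap44 (1.13). Cfap44 was at 4.52, 9.48, 6.52, 11.95 and 19.9 RPM in Sham-OVA and 18.5, 27.4, 21.2 and 17.8 RPM in PM-OVA, where only the value of Sham-OVA replicate 5 reached those of PM-OVA.

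The promoter of Cfap44 is shown because regulatory factor X (RFX) proteins, which act with Foxj1 in ciliated cells, bind a motif called the X-box. It is the window of 250 bases upstream of the RefSeq start on the plus strand, at chr16:44394549-44394798 of GRCm38.p6, with capitals marking a match to the X-box, the letters GTTNCC and GNAAC with NNN between them, which here lies on the opposite strand, 27 bases before the start.
Cfap44: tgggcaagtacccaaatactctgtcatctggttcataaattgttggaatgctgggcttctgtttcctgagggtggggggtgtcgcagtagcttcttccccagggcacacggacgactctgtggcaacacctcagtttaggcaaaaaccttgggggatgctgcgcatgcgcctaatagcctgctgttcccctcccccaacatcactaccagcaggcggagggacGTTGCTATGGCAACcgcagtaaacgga
On either strand, these letters were found in 2 of the 16 cilium genes with a window (12.5%), Cfap44 and Hydin, and in 219 of all 32851 windows (0.667%). A match of letters does not show that a factor binds there.

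The spread between Sham-OVA libraries was wide for these genes. Sham-OVA replicate 1 had the lowest level of 14 of the 18 and PM-OVA replicate 2 the highest of 16. The mean log2(RPM + 0.5) over the 18 genes was 2.28, 3.45, 3.50, 3.47 and 4.43 in Sham-OVA replicates 1 to 5 and 4.01, 5.16, 4.52 and 3.95 in PM-OVA replicates 1 to 4. Without Sham-OVA replicate 1 the median log2 fold change was 0.73 and 5 genes were at an unadjusted p under 0.05, whereas without PM-OVA replicate 2 these were 0.76 and 2, and without Sham-OVA replicate 5 they were 1.34 and 11. The genes at such a p among all those tested, in either direction, numbered 108, 117 and 371 in the same order, against 255 with every library kept. All 18 genes kept a higher PM-OVA mean with any 1 library left out and with the 3 shallow libraries left out, where the median was 1.26.

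Genes of club and other airway secretory cells had a higher PM-OVA mean for 12 of 12 members, with a median log2 fold change of 0.56, and 0 of them reached an unadjusted p under 0.05. Scgb1a1, the club cell secretory protein, was at 3404, 9898, 14563, 11396 and 26224 RPM in Sham-OVA and 5419, 31944, 25274 and 19822 RPM in PM-OVA. The lowest value of each group, in Sham-OVA replicate 1 and PM-OVA replicate 1, lay far below its highest, and the groups overlapped (log2 fold change 0.67, 95% interval -0.74 to 2.08). Cyp2f2, a cytochrome P450 of club cells, had a log2 fold change of 0.76 (-0.34 to 1.86). The mean log2(RPM + 0.5) of the 12 genes was lowest in Sham-OVA replicate 1 (6.23) and highest in PM-OVA replicate 2 (8.97), as for the cilium genes. Without Sham-OVA replicate 1 the median was 0.27, and without PM-OVA replicate 2 it was 0.28 with 9 of 12 higher.

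The mucus programme, which the OVA challenge induces, had a higher PM-OVA mean for 13 of 15 goblet cell genes, with a median log2 fold change of 0.70. Clca1, a secreted regulator of mucus, was at 423, 1082, 1338, 828 and 1755 RPM in Sham-OVA and 1510.1, 4545, 1893 and 1063 RPM in PM-OVA, and PM-OVA replicate 2 stood above all the others (log2 fold change 0.98, -0.07 to 2.03). Muc5ac, a gel-forming mucin of goblet cells, was at 17.7, 36.7, 77.4, 36.9 and 62.5 RPM in Sham-OVA and 40.4, 135, 83.8 and 43.8 RPM in PM-OVA, so that 2 of the 4 PM-OVA libraries were within the Sham-OVA range (log2 fold change 0.70, -0.33 to 1.72). The log2 fold change was 0.98 for the second gel-forming mucin Muc5b, 1.11 for Agr2, which folds mucins, and 0.54 for Spdef, the transcription factor of goblet cell differentiation, each with an interval that included 0. An unadjusted p under 0.05 was reached by 2 of the 15, against 1.03% of all genes in this direction. They were the lectin Itln1 (0.96) and Ern2 (1.12), the endoplasmic reticulum (ER) stress sensor of goblet cells. Ern2 was at 0.0695, 0.0752, 0, 0.478 and 0.803 RPM in Sham-OVA and 0.941, 1.70, 0.929 and 0.908 RPM in PM-OVA. The groups did not overlap, but no library had more than 22 reads on Ern2, and with 1 Sham-OVA library at 0.5 RPM or more the gene passed the filter through PM-OVA. The 2 members with a lower PM-OVA mean were the anion exchanger Slc26a4 (-0.24) and Creb3l1 (-0.30). Without Sham-OVA replicate 1 the median of the list was 0.41. The levels of the cilium, club and goblet lists were lowest in Sham-OVA replicate 1 and highest in PM-OVA replicate 2, and the part of the amount of conducting airway in each piece of lung was not tested.

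Circadian clock genes had a higher PM-OVA mean for 13 of 18 members, with a median log2 fold change of 0.61, and the members divided by their role. The study's methods do not give the hour of day at which each lung was collected, and the part of that hour in these values was not tested. The clock is a loop in which Arntl (BMAL1) with Clock or Npas2 activates the Per and Cry genes, whose proteins then block that activation, and in which Dbp and Tef oscillate as outputs in the phase of the Per genes. The PM-OVA mean was higher for the Per and Cry genes, Dbp and Tef, and the activators Arntl (-0.55), Npas2 (-0.45) and Clock (-0.20) had a lower PM-OVA mean, as did Nfil3 (-0.33), which opposes Dbp at shared sites, and Bhlhe41 (-0.37). An unadjusted p under 0.05 was reached by 5 genes, against 1.03% of all genes in this direction, all with a higher PM-OVA mean and none with an adjusted p under 0.05 by limma. Dbp was at 33.4, 22.8, 53.1, 35.6 and 156 RPM in Sham-OVA and 69.3, 219.9, 215 and 152 RPM in PM-OVA, with a log2 fold change of 1.66 (0.50 to 2.83). Per2, a repressor of the core loop, was at 10.98, 16.2, 16.5, 15.9 and 41.1 RPM in Sham-OVA and 32.4, 51.5, 39.8 and 36.7 RPM in PM-OVA (1.10, 0.35 to 1.86), and Tef at 104, 106, 167, 132 and 324 RPM in Sham-OVA and 173, 341, 367 and 388 RPM in PM-OVA (1.00, 0.21 to 1.80). In each of the 3 genes, Sham-OVA replicate 5 lay among the PM-OVA libraries and the other 4 Sham-OVA libraries lay below all 4 of them. Cry2, a repressor like Per2, had a log2 fold change of 0.50. Arntl was at 17.1, 11.3, 1.86, 14.6 and 5.11 RPM in Sham-OVA and 11.4, 4.25, 2.92 and 5.08 RPM in PM-OVA, with Sham-OVA replicates 2 and 5 in the range of PM-OVA and Sham-OVA replicate 3 below it.

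The windows of Tef and Per3 are shown because they hold the letters of the motifs through which this loop is known to act, with capitals marking the E-box CACGTG, which the activators bind, 127 bases before the start of Tef, and the D-box TTATGTAA, which Dbp and Tef bind, 205 and 158 bases before the start of Per3. They are the 250 bases upstream of the RefSeq starts in GRCm38.p6, at chr15:81802423-81802672 on the plus strand and chr4:151044666-151044915 on the minus strand, each written in the direction of transcription.
Tef: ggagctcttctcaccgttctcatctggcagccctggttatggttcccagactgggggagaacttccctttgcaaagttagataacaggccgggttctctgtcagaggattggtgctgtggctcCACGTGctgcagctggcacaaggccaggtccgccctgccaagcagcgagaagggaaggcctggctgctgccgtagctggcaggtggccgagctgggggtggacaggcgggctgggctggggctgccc
Per3: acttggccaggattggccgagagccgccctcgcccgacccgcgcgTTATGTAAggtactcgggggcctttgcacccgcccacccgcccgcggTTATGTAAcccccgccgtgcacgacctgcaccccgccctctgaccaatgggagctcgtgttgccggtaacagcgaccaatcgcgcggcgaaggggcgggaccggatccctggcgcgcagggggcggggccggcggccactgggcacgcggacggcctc
On either strand, the E-box letters were in 5 of the 15 clock genes with a window (33.3%), Bhlhe41, Ciart, Cry1, Per1 and Tef, and in 1978 of all 32851 windows (6.02%). The D-box letters were in 1 of the 15 (6.67%), Per3, and in 269 of all windows (0.819%). The groups overlapped for Per3 (log2 fold change 0.94, 95% interval -0.17 to 2.06). A match is a description of the letters and not of a bound factor.

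The clock pattern kept its direction when libraries were left out, with 12 or 13 of 18 genes higher and a median from 0.40, without PM-OVA replicate 3, to 0.73, without Sham-OVA replicate 5, although the number at an unadjusted p under 0.05 varied from 3 to 8. Among all genes tested that number, in either direction, ran from 108 to 736 with 1 library left out. In lungs without OVA, the maternal contrast of these genes had the opposite sign, with a median of -0.36 for PM over Sham, -0.76 for Dbp, -0.66 for Per2 and 0.68 for Arntl. This contrast includes Sham replicate 1, a library with Y-linked transcripts. Across the 14 saline libraries Dbp varied from 17.6 to 339 RPM.

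**Figure D3:**
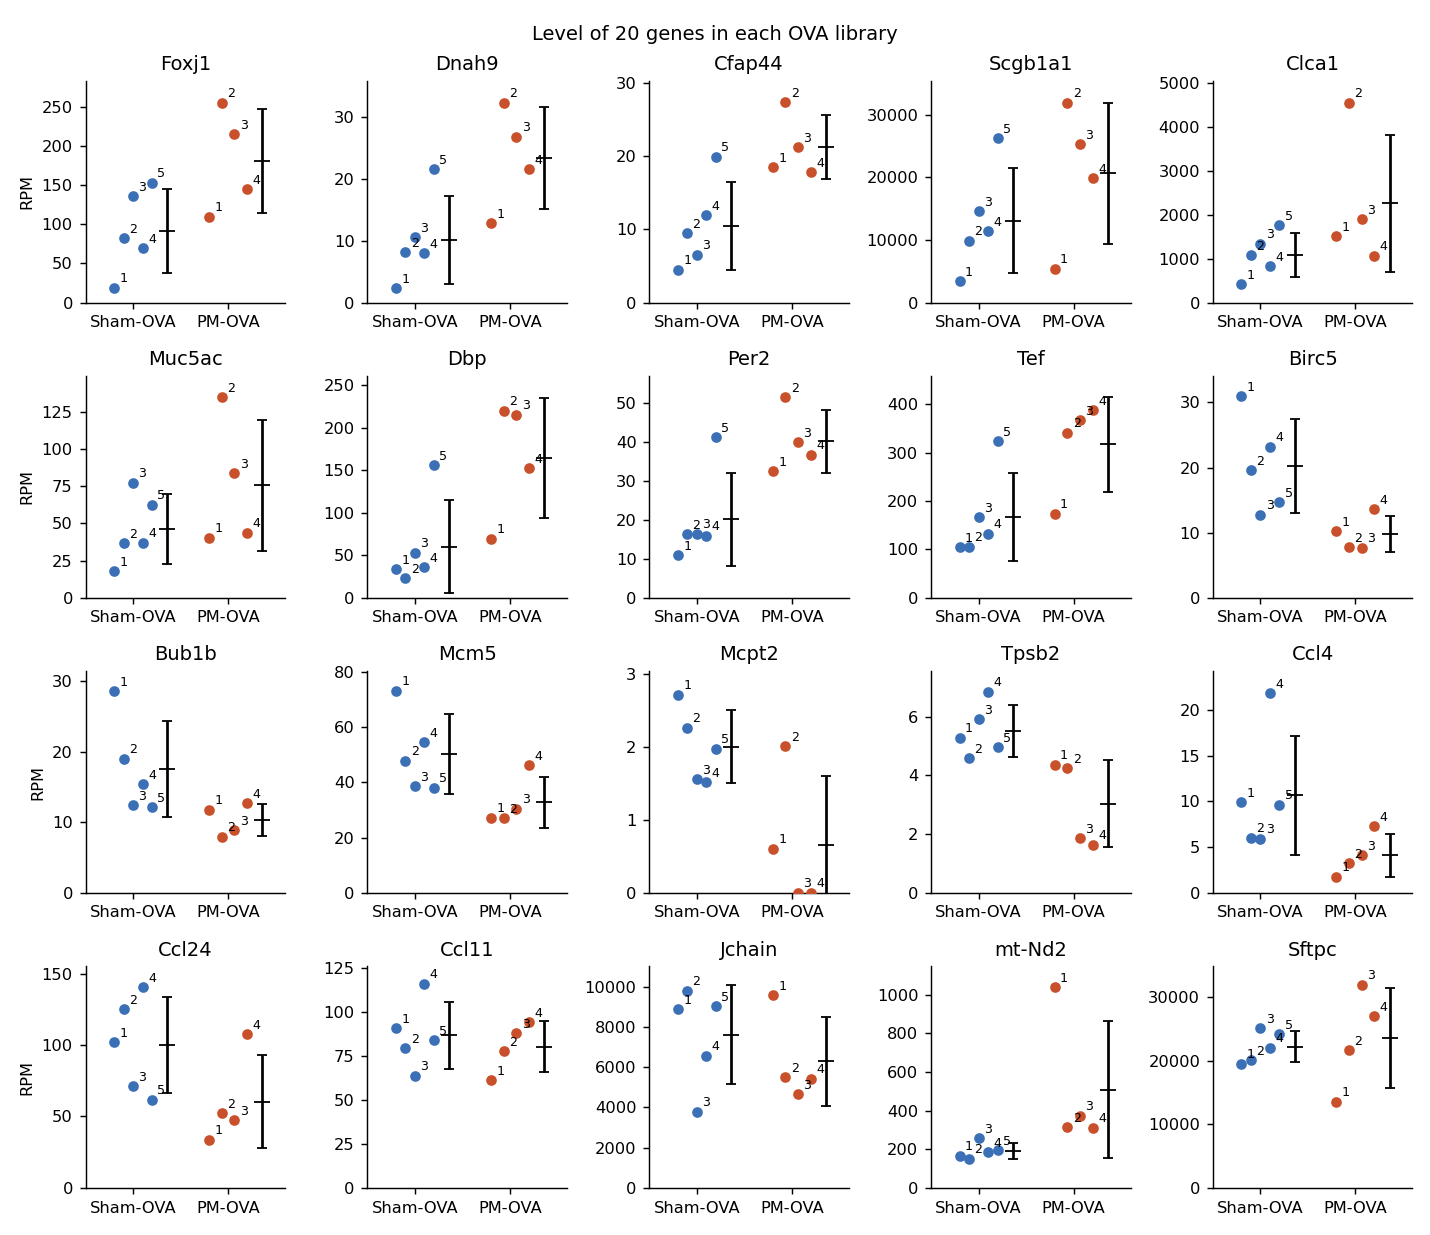
Each panel plots 1 of 20 genes in RPM on an axis from 0, with 1 point per library (blue Sham-OVA, n = 5, red PM-OVA, n = 4, numbered by replicate) and the group mean with a bar of 1 SD, cut at 0 where it would pass below. In the panels of Dbp, Per2 and Tef Sham-OVA replicate 5 lies with the PM-OVA libraries, and the groups do not overlap in the panels of Tpsb2 and mt-Nd2, and in the latter PM-OVA replicate 1 reaches 1038 RPM.

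Genes of dividing cells were on average lower in PM-OVA. Of 22 mitosis genes 21 had a lower PM-OVA mean, with a median log2 fold change of -0.65, and the exception was Ccnb2 (0.07). An unadjusted p under 0.05 was reached by 2 of them, against 0.633% of all genes in this direction. Birc5, the survivin of the chromosomal passenger complex, was at 30.9, 19.6, 12.7, 23.2 and 14.7 RPM in Sham-OVA and 10.2, 7.73, 7.70 and 13.6 RPM in PM-OVA (-0.97, -1.67 to -0.28). Only Sham-OVA replicate 3, the shallow library, was within the PM-OVA range. Bub1b, a kinase-like protein of the spindle checkpoint, was at 28.6, 19.0, 12.4, 15.4 and 12.1 RPM in Sham-OVA and 11.8, 7.96, 8.90 and 12.7 RPM in PM-OVA (-0.68, -1.36 to -0.01), with Sham-OVA replicates 3 and 5 in the PM-OVA range. The proliferation marker Mki67 was at 38.1, 18.5, 0.311, 21.3 and 9.93 RPM in Sham-OVA and 74.2, 12.2, 1.19 and 0.363 RPM in PM-OVA, too spread within both groups to be compared. Sham-OVA replicate 1 had the highest level of 19 of the 22 genes. Without it the median was -0.45 and 1 gene was at an unadjusted p under 0.05, whereas without Sham-OVA replicate 3 the median was -0.80 and there were 11. Over all genes tested, those at an unadjusted p under 0.05 in either direction numbered 108 and 736 in these settings, against 255 with all 9 libraries. The median of all genes was 0.07 and -0.15.

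DNA replication and mismatch repair genes followed with a lower PM-OVA mean for 22 of 25 members and a median of -0.35. Mcm5, a subunit of the replicative helicase, was at 73.2, 47.8, 38.5, 54.5 and 38.1 RPM in Sham-OVA and 27.1, 27.1, 30.4 and 46.3 RPM in PM-OVA (-0.61, -1.17 to -0.04). Its unadjusted p was the only one under 0.05 in this list, against 0.633% of all genes in this direction. All 13 B cell genes had a lower PM-OVA mean, with a median of -0.34 and values from -0.71 for the kinase Blk to -0.08 for the inhibitory receptor Cd22, and 0 of them reached an unadjusted p under 0.05. Of 11 plasma cell genes 10 were lower on average (median -0.39). Jchain, which joins IgA and IgM into polymers, was at 8879.8, 9793, 3788, 6561 and 9031 RPM in Sham-OVA and 9574, 5487, 4651 and 5431 RPM in PM-OVA, a wide overlap (log2 fold change -0.26, -1.03 to 0.51). The log2 fold change of Mzb1, a chaperone of antibody-secreting cells, was -0.64 (-1.52 to 0.23). ER folding and secretion genes, on which antibody and mucin secretion depend, had a lower PM-OVA mean for 14 of 15 members, with a median of -0.42. The cochaperone Sdf2l1 was at 245, 196, 132, 167 and 176 RPM in Sham-OVA and 135, 108, 135 and 126.2 RPM in PM-OVA (-0.51, -0.95 to -0.08), and here the Sham-OVA value of replicate 3 alone reached into the PM-OVA range. All 11 genes of antigen presentation by MHC class II had a lower PM-OVA mean, with a median of -0.23. The lists of this paragraph had 0 genes with an adjusted p under 0.05 by limma.

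The cytokines of the type 2 response did not separate the groups. IL-4, IL-5 and IL-13 transcripts were low. Il13 was at 4.24, 2.56, 0, 2.15 and 0.146 RPM in Sham-OVA and 0.806, 1.31, 0 and 0.908 RPM in PM-OVA and the 95% interval of its log2 fold change ran from -2.09 to 1.01, an interval too wide to tell a lower from a higher level. The log2 fold change was -0.32 for Il4 (-1.32 to 0.69) and -0.48 for Il5 (-1.65 to 0.69). The more abundant Ccl11, the eotaxin that attracts eosinophils, was measured more precisely, at 86.7 ± 19.1 RPM (SD, n = 5) among Sham-OVA libraries and 80.2 ± 14.3 RPM (SD, n = 4) among PM-OVA libraries (log2 fold change -0.10, -0.57 to 0.37). The list of 14 type 2 cytokines and receptors had 5 members with a higher PM-OVA mean and a median of -0.20. Retnla, an effector of alternatively activated macrophages and epithelium, was at 18476 ± 4832 RPM (SD, n = 5) among Sham-OVA libraries and 17482 ± 6468 RPM (SD, n = 4) among PM-OVA libraries (-0.13, -0.98 to 0.71), and Chil4, a chitinase-like protein of the inflamed airway, had a log2 fold change of 0.87 (-0.55 to 2.29).

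Chemokines were lower on average. Of 24 CC chemokines and receptors 21 had a lower PM-OVA mean (median -0.28) and 4 were at an unadjusted p under 0.05, all lower, against 0.633% of all genes in this direction. Ccl4, which attracts lymphocytes and monocytes, was at 9.87, 6.02, 5.90, 21.8 and 9.64 RPM in Sham-OVA and 1.75, 3.25, 4.12 and 7.26 RPM in PM-OVA (-1.26, -2.28 to -0.24), with 3 of the 4 PM-OVA libraries below every Sham-OVA library. Ccl24, a second eotaxin, was at 102, 125, 71.1, 141 and 61.6 RPM in Sham-OVA and 33.8, 52.4, 47.3 and 107 RPM in PM-OVA (-0.79, -1.57 to -0.02), where PM-OVA replicate 4 lay within the Sham-OVA range. The other 2 were Ccl1 (-0.79), of a few reads per library, and Ccl8 (-0.74). Among 18 CXC chemokines and receptors 12 had a lower PM-OVA mean (median -0.24), and the neutrophil attractants Cxcl5 (-1.70, -3.13 to -0.26) and Cxcl3 (-1.40, -2.66 to -0.14) were at an unadjusted p under 0.05, against the same 0.633%. Cxcl5 was at 28.2, 10.4, 3.11, 17.7 and 4.09 RPM in Sham-OVA and 6.52, 2.63, 1.19 and 1.82 RPM in PM-OVA, with the high values in Sham-OVA replicates 1, 2 and 4. The number of CC chemokines at an unadjusted p under 0.05 was 0 without Sham-OVA replicate 4 and 10 without Sham-OVA replicate 3. For all genes tested, in either direction, it was 157 and 736.

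Mast cell genes had the lowest median of all lists, -0.85, with 9 of 11 members lower on average and 4 at an unadjusted p under 0.05, against 0.633% of all genes in this direction. With the 3 shallow libraries left out the median was -0.51, above that of the mitosis genes (-0.73), and with 1 library left out it ran from -1.04 (without PM-OVA replicate 2) to -0.60 (without Sham-OVA replicate 4), with 1 gene at an unadjusted p under 0.05 without PM-OVA replicate 3 and 2 without Sham-OVA replicate 4. Of all genes tested, in either direction, 163 were at such a p without PM-OVA replicate 3 and 157 without Sham-OVA replicate 4. The 3 members with a mean of at least 5 RPM had a median of 0.07. Mcpt2, a protease of mucosal mast cells, was at 2.71, 2.26, 1.55, 1.51 and 1.97 RPM in Sham-OVA and 0.605, 2.01, 0 and 0 RPM in PM-OVA. The PM-OVA replicates 3 and 4, both shallow, had 0 reads, and 3 reads would be 0.398 and 0.545 RPM in them (-1.43, -2.50 to -0.37). Mcpt2 passed the filter of 0.5 RPM in 4 libraries through Sham-OVA, since too few PM-OVA libraries reached 0.5 RPM. Tpsb2, a tryptase, was at 5.28, 4.59, 5.90, 6.85 and 4.97 RPM in Sham-OVA and 4.37, 4.25, 1.86 and 1.63 RPM in PM-OVA (-0.86, -1.63 to -0.10), and all 4 PM-OVA libraries lay below all 5 Sham-OVA libraries. The log2 fold change was -1.17 for Mcpt1 and -1.11 for Mcpt4, further mast cell proteases, and -0.83 (-1.80 to 0.14) for the carboxypeptidase Cpa3. The receptor Kit (0.11) and the transcription factor Gata2 (0.07), which other cells also express, had a higher PM-OVA mean. With all libraries thinned to 1 depth the median was -0.86 and 0 genes were at an unadjusted p under 0.05. Mcpt8, a basophil protease, was at 68.0 RPM in Sham-OVA replicate 4 and at no more than 1.27 RPM in the other 8 libraries.

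Other leukocytes differed less. All 8 eosinophil genes had a lower PM-OVA mean (median -0.25), with 0 at an unadjusted p under 0.05. Without Sham-OVA replicate 4, 3 of 8 were higher and the median was -0.11. Prg2, the major basic protein of eosinophil granules, was at 7.71, 12.4, 3.73, 16.4 and 5.77 RPM in Sham-OVA and 5.11, 5.87, 8.63 and 9.08 RPM in PM-OVA (-0.21, -1.13 to 0.72), and the groups overlapped throughout. The lists of CD4 and regulatory T cells (1 of 14 higher, median -0.30) and interstitial macrophages (2 of 14, -0.23) were lower on average, while neutrophil (7 of 12, 0.03), monocyte (5 of 12, -0.06), dendritic cell (5 of 13, -0.08) and cytotoxic lymphocyte genes (6 of 13, -0.03) had medians near 0. Of the interferon-stimulated genes 1 of 16 had a higher PM-OVA mean (median -0.19). Sham-OVA replicate 4 had the highest level of 9 of the 16, and without this library 9 of 16 were higher (median 0.03). Zbp1, a sensor of nucleic acids, was at 35.5, 30.2, 22.1, 32.03 and 30.5 RPM in Sham-OVA and 21.4, 17.2, 17.4 and 22.3 RPM in PM-OVA (-0.60, -1.07 to -0.13), with Sham-OVA replicate 3 alone in the PM-OVA range.

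Structural cells and the contractile machinery of the airway showed small differences. Smooth muscle genes had a higher PM-OVA mean for 11 of 14 members with a median of 0.14, and the actin Acta2 was at 293 ± 49.4 RPM (SD, n = 5) among Sham-OVA libraries and 296 ± 91.3 RPM (SD, n = 4) among PM-OVA libraries (-0.03, -0.59 to 0.53). Receptors through which the airway constricts or relaxes were higher on average for 15 of 20 (median 0.14), but for 8 of 20 without Sham-OVA replicate 3 (median -0.06). Chrm3, the muscarinic receptor that methacholine activates on airway smooth muscle, was at 2.22, 1.505, 0.311, 1.99 and 1.31 RPM in Sham-OVA and 2.55, 2.86, 1.46 and 0.363 RPM in PM-OVA, a log2 fold change of 0.16 (-0.93 to 1.26) at a level of a few reads in the shallow libraries. Tacr1, the substance P receptor, had the highest value of this list (0.98, -0.44 to 2.40). The TGF-beta, SMAD and BMP genes had a higher PM-OVA mean for 23 of 32 (median 0.10), and the median ran from -0.24 (without Sham-OVA replicate 3) to 0.43 (with the 3 shallow libraries left out) under the alternatives, and was also below 0 without PM-OVA replicate 1 (-0.13) or PM-OVA replicate 2 (-0.02). Collagens and elastic fibre genes were lower on average for 18 of 23 (median -0.06), a direction that turned without Sham-OVA replicate 1 (0.02), PM-OVA replicate 3 (0.07) or PM-OVA replicate 4 (0.09) and with the 3 shallow libraries left out (0.21, 20 of 23 higher). Elastin (Eln) was at 596, 977, 951, 674 and 358 RPM in Sham-OVA and 649.7, 515, 323 and 224 RPM in PM-OVA (-0.76, -1.57 to 0.05). All 14 capillary endothelial genes had a higher PM-OVA mean, but the median was 0.13, and with other processing between 6 and 14 of them were higher. Among 15 matrix metalloproteinases and their inhibitors, Timp4 (1.23, 0.20 to 2.26) was the only one at an unadjusted p under 0.05, against 1.03% of all genes in this direction. The other lists of this paragraph had 0 such genes. Alveolar type 1 genes were higher on average for 10 of 12 (median 0.14), but for 5 of 12 without PM-OVA replicate 1 (median -0.05). Type 2 genes (7 of 12, 0.01) were close to all genes, and Sftpc was at 22195 ± 2441 RPM (SD, n = 5) among Sham-OVA libraries and 23551 ± 7867 RPM (SD, n = 4) among PM-OVA libraries (0.02, -0.71 to 0.76).

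Regulators of the epigenome and of RNA decay were examined because the study also measured DNA methylation. None of the 17 DNA methylation writers, erasers and readers reached an unadjusted p under 0.05, and 7 had a higher PM-OVA mean (median -0.07). Dnmt1, the maintenance methyltransferase, was at 37.1 ± 11.9 RPM (SD, n = 5) among Sham-OVA libraries and 30.0 ± 7.04 RPM (SD, n = 4) among PM-OVA libraries (-0.26, -0.92 to 0.39), and Dnmt3a, a de novo methyltransferase, at 45.7 ± 14.4 RPM (SD, n = 5) among Sham-OVA libraries and 47.1 ± 15.9 RPM (SD, n = 4) among PM-OVA libraries (0.06, -0.63 to 0.76). The log2 fold change was -0.26 for Tet1, 0.04 for Tet2 and 0.09 for Tet3, which oxidise methylcytosine, and the intervals reached about 1 in both directions. Histone modifying enzymes (10 of 26 higher, -0.07) and the CCR4-NOT complex and other mRNA deadenylation genes (10 of 21, -0.01) had medians near 0. The same held for the antioxidant targets of NRF2 (14 of 22, 0.10) and the aryl hydrocarbon receptor pathway (4 of 8, 0.02), which respond to pollutants.

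**Figure D4:**
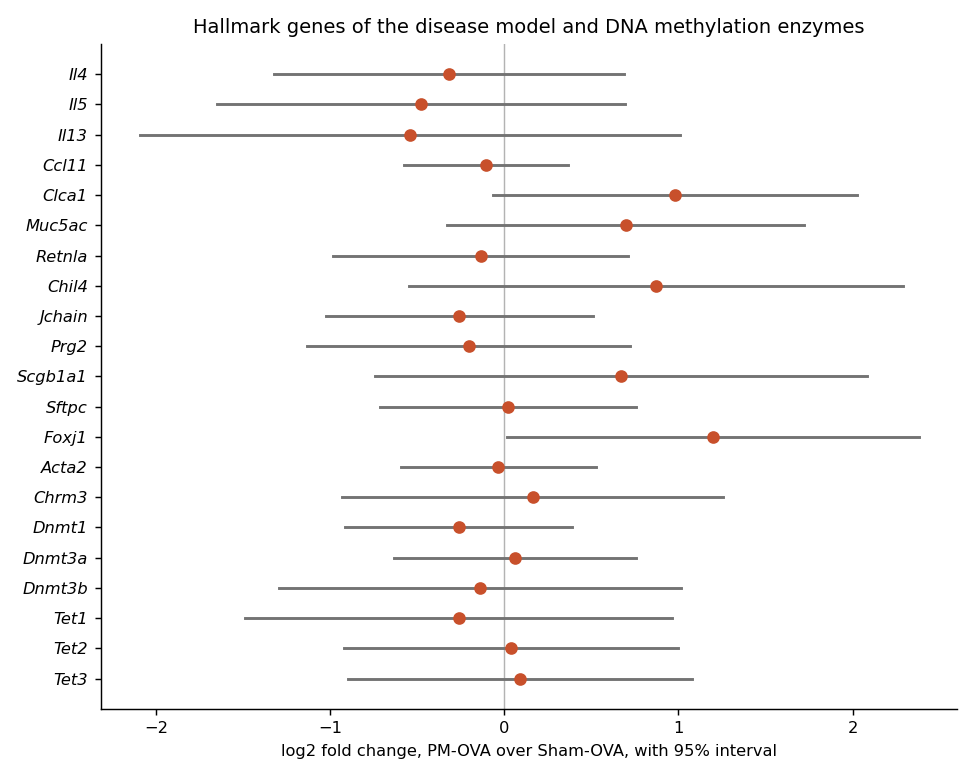
Log2 fold changes of PM-OVA over Sham-OVA (points) with 95% intervals by limma (lines) are plotted on the horizontal axis for 21 genes of the disease model and of DNA methylation. The intervals of 20 of them include 0, and that of Foxj1 starts at 0.02.

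The 7 tested respiratory chain genes of the mitochondrial genome had a higher PM-OVA mean for 6 (median 0.57), whereas the 19 nuclear ones were higher on average for 4 (median -0.12). The other 6 protein genes of the mitochondrial genome, which every cell uses, were listed at 0 in all 23 libraries. For mt-Nd2, a subunit of complex I (ENSMUSG00000064345, chromosome M, 3914 to 4951, plus strand), the level was 166, 151, 258, 186 and 195 RPM in Sham-OVA and 1038, 315, 373 and 311 RPM in PM-OVA (1.23, 0.47 to 1.99). All PM-OVA values were above all Sham-OVA values, and that of PM-OVA replicate 1 stood far above the others. The pattern of mt-Cytb, the cytochrome b of complex III, was the same at 679, 717, 933, 725 and 701 RPM in Sham-OVA and 2424, 1088, 960.3 and 1098 RPM in PM-OVA (0.79, 0.19 to 1.39). Reads on the mitochondrial genome were 0.918% to 1.27% of those on genes in Sham-OVA and 1.172% to 1.79% in PM-OVA. mt-Nd5, by contrast, was at 334, 410.4, 1924, 392 and 618 RPM in Sham-OVA and 592, 420.0, 1752 and 1997 RPM in PM-OVA, with the 3 shallow libraries far above the rest in both groups. A nuclear gene model, Gm13339, has a stretch nearly identical to mt-Nd2, so reads could be divided between them.

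The groups did not overlap for 45 genes with a higher level in PM-OVA (0.294% of those tested) and 49 with a lower one (0.32%). With groups this small, chance alone would on average put a larger share of genes apart in each direction. Being apart therefore does not by itself set the genes named below off from chance. Pdxk, the pyridoxal kinase that makes the active form of vitamin B6 (ENSMUSG00000032788, chromosome 10, 78436744 to 78464975, minus strand), was at 27.4, 28.4, 18.3, 27.5 and 29.8 RPM in Sham-OVA and 47.8, 48.1, 42.4 and 34.1 RPM in PM-OVA. Its 4 PM-OVA values were between 34.1 and 48.1 RPM and its Sham-OVA values at most 29.8 RPM (log2 fold change 0.71, 0.24 to 1.18, limma with BH adjustment, adjusted p = 0.9999), and DESeq2 on the recovered reads gave an adjusted p of 0.0331. The level in saline lungs was 43.3 to 62.2 RPM. Mycbpap, a MYCBP-associated protein (ENSMUSG00000039110, chromosome 11, 94501347 to 94521742, minus strand), was at 2.43, 3.61, 5.28, 4.30 and 6.50 RPM in Sham-OVA and 9.20, 14.1, 9.03 and 8.72 RPM in PM-OVA (1.16, 0.44 to 1.88). Sord, the sorbitol dehydrogenase of the polyol pathway, was at 12.1, 12.6, 11.5, 16.4 and 17.1 RPM in Sham-OVA and 21.4, 29.1, 23.4 and 23.8 RPM in PM-OVA (0.80, 0.30 to 1.29), and the PM-OVA values again formed a narrow range above Sham-OVA. Others in this direction were Rbm24 (1.49), an RNA-binding regulator of splicing, Ttc21a (1.09), Myo15b (1.18), the glycogen-targeting subunit Ppp1r3e (1.03) and the uroplakin Upk3a (1.26). The last 2 and Myo15b were near the filter of 0.5 RPM, and Ttc21a overlaps Cx3cr1, from which its reads may not be fully separated.

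Ahcy had the smallest p of all genes, 0.00123 unadjusted in limma and 0.9999 after BH adjustment. It encodes the hydrolase of S-adenosylhomocysteine, the by-product of methylation reactions (ENSMUSG00000027597, chromosome 2, 155059310 to 155074497, minus strand), and was at 3.27, 2.33, 3.42, 3.03 and 1.97 RPM in Sham-OVA and 0.605, 1.00, 0.929 and 0.908 RPM in PM-OVA. Every PM-OVA value was at 1.00 RPM or less and every Sham-OVA value at 1.97 RPM or more (-1.27, -1.91 to -0.62). The saline libraries had 0.228 to 0.883 RPM. In a fit of all 4 groups with 1 shared estimate of the spread, limma gave an adjusted p of 0.0484. Gm4737, Gm5638 and Gm9826 hold stretches nearly identical to Ahcy, so the share of its reads that was counted is uncertain. Further genes without overlap and with a lower level in PM-OVA were Cd209g (-1.52), a lectin close to Cd209f, the ER chaperone Clgn (-0.99), the galectin Lgals7 (-0.98), the matrix protein Thbs4 (-0.998) and the tubulin Tuba4a (-0.51). Lgals7 was at 9.38, 6.77, 9.63, 5.74 and 6.50 RPM in Sham-OVA and 2.96, 2.78, 4.25 and 4.36 RPM in PM-OVA, and Tuba4a, the most abundant of them, at 50.8, 43.7, 50.02, 59.9 and 46.1 RPM in Sham-OVA and 29.5, 35.0, 36.6 and 39.0 RPM in PM-OVA. Both separated the groups by a small gap. Acat3, Bloc1s1 and Uqcr11, also without overlap, share sequence or position with other genes and are uncertain for that reason.

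Genes of tissues other than lung differed between the pieces. Cardiac muscle genes had a higher PM-OVA mean for 8 of 9 (median 0.53), with a summed level of 59.4 to 489 RPM in Sham-OVA, highest in Sham-OVA replicate 3, and 112 to 198 RPM in PM-OVA. Without that library the median was 1.05, without Sham-OVA replicates 1 and 2 in turn it was 0.34 and 0.17, and with DESeq2 on the recovered reads it was -0.28 with 2 of 9 genes higher. Adipocyte genes were lower on average for 6 of 7 (median -0.52, summed 88.9 to 155 RPM in Sham-OVA and 75.5 to 103 RPM in PM-OVA), and the defining adipocyte hormone Adipoq was at no more than 2.80 RPM. The part of such tissue in the results above was not tested.

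Whether the maternal effect in the challenged lung differed from that without challenge was tested as an interaction over all 23 libraries. At an adjusted p under 0.05 it was found for 0 genes (0.0%) by limma with BH adjustment, with a smallest adjusted p of 0.583, and 789 genes (5.15%) were at an unadjusted p under 0.05. DESeq2 called 2 genes, Pdxk and Mycbpap. Without OVA, PM and Sham differed for 0 genes by limma at an adjusted p under 0.05, with 90 (0.587%) at an unadjusted p under 0.05. The median SE in this fit was 0.22, against 0.27 for PM-OVA over Sham-OVA. All groups shared the estimate of the spread, so these values do not compare the spread with and without OVA. Fitted on the OVA libraries alone, PM-OVA over Sham-OVA had a median SE of 0.36. The shared fit raised its genes at an unadjusted p under 0.05 by limma from 255 to 959. The interaction counts rest on this shared spread, which may be too small for the OVA libraries. The 5 genes with the smallest p were Mycbpap, Scd1, Ahcy, Rbm24 and Banf2os. The log2 difference between both maternal effects was 1.41 for Mycbpap (SE 0.28), 1.63 for Rbm24 and -1.17 for Ahcy. Scd1, the stearoyl-CoA desaturase, was at 1139, 870.4, 1222, 1189 and 913 RPM in Sham-OVA and 828.8, 748, 744 and 668 RPM in PM-OVA, without overlap, a log2 fold change of -0.50 after OVA and 0.80 without (difference -1.31, SE 0.29). Scd1 has stretches nearly identical to Scd2 and Scd3.

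Several lists had maternal contrasts of opposite sign with and without OVA. For the mitosis genes the median was -0.65 with OVA and 0.31 without, and 10 of 22 had an unadjusted interaction p under 0.05, against 5.15% of all genes. It was 1.05 and -0.17 for the cilium genes (12 of 18), and 0.61 and -0.36 for the clock genes (10 of 18), while mast cell genes had -0.85 and 0.05 (6 of 11). The interaction uses the same OVA libraries as the comparison above, so these counts do not stand apart from it, and 0 of these genes passed BH adjustment in limma. Across the 15323 genes both contrasts, which share no library, had r = -0.187, and r = -0.141 without Sham replicate 1, a library with Y-linked transcripts and 0.29 RPM of Xist although the methods describe females. Genes are not independent, so no p is given. The list medians without OVA include Sham replicate 1.

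**Figure D5:**
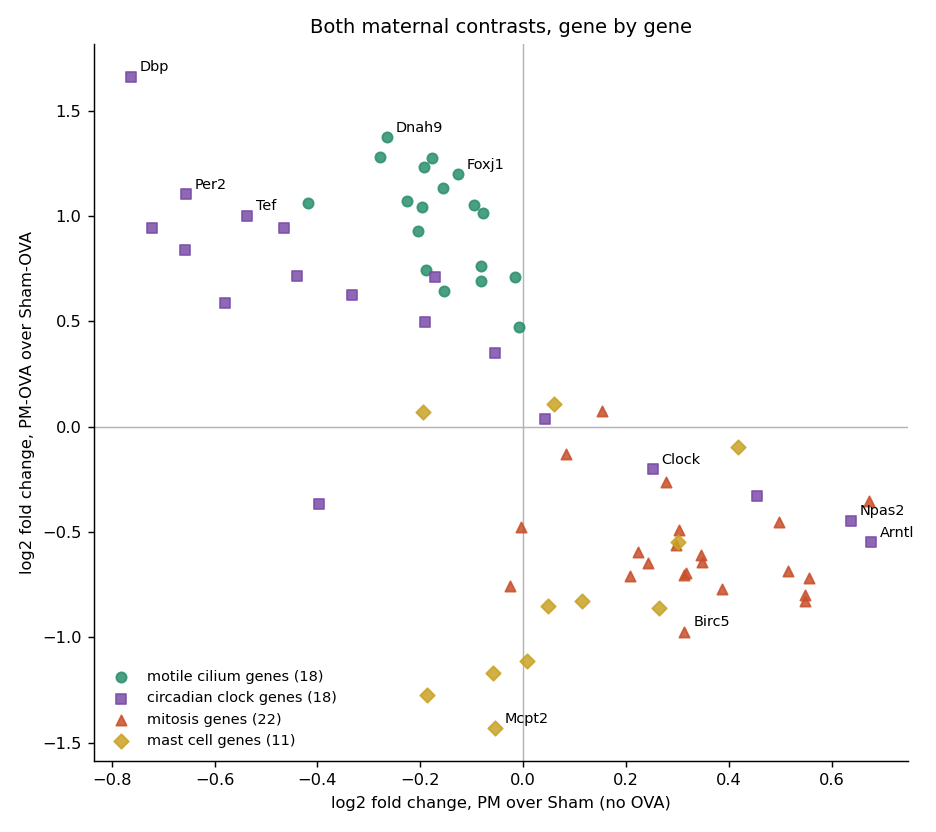
Each point is a gene of 4 lists, with its log2 fold change of PM over Sham without OVA on the horizontal axis and of PM-OVA over Sham-OVA on the vertical axis. Cilium genes lie at the upper left, with medians of -0.17 and 1.05, mitosis genes at the lower right, with 0.31 and -0.65, clock genes in both corners by role, and mast cell genes spread below 0 with no side on the horizontal axis.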

How the data were processed

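Stranded mRNA libraries from lung were sequenced as single-end reads, which the authors trimmed with Trimmomatic, aligned to GRCm38 with Bowtie2, which does not split reads across introns, and quantified in SeqMonk. The authors deposited RPM for 35322 genes and 23 libraries in 1 table, which is named after RPKM. Dividing each value by that of 1 read gave a whole number in 100% of cases (tolerance 0.01 reads) at any gene length, so reads were recovered. Libraries were grouped by their labels.

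Genes that reached 0.5 RPM in 4 or more of the 9 OVA libraries were tested on log2(RPM + 0.5) in R 4.3.3 by limma 3.58.1 (variance trend, BH adjustment), and the interaction in a fit of all 23 libraries. The tests had been planned for RPKM and were applied unchanged. edgeR 4.0.16 and DESeq2 1.42.0 were run on the recovered reads. Principal components were compared with two-sided exact permutation tests.

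The genes described and the lists were chosen with earlier results of these data known. Named were, per direction, the 12 genes of smallest p whose groups did not overlap, in each list the highest and lowest member and those at an unadjusted p under 0.05, 21 hallmark genes and the 5 genes with the smallest interaction p. Other members were named after their values were seen. Replicate numbers here are those of the sample titles and recur in both groups, but most library names of the OVA groups carry another number. Libraries with the same title number deviated together with r of 0.62, 0.25, 0.64 and -0.33, and they were not treated as pairs. This check follows the title numbers only, so it cannot show whether libraries that share a number in their names are pairs. Coordinates are from GENCODE vM21 (GRCm38), near-identical stretches were found with BLAST 2.17.0, and promoters are from RefSeq. The alternatives are given at the end, of which the removal of the trend with GC content and transcript length, the common depth, leaving out the 3 shallow libraries and leaving out Sham replicate 1 were chosen after seeing the data.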

Additional observations from a re-analysis of the deposited data

Results flagged for a closer look

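Among 104 groups of library values examined, 13 had 1 library whose gap to its nearest neighbour was large for the range of the group by Dixon's criterion, where chance alone gives about 1 in 20. Sham-OVA replicate 3 was such a library for its 2298645 reads on genes (the others had 10345173 or more), its share of reads on the mitochondrial genome (1.27%, others at most 0.987%), its scores of 121.8 on principal component 1 and 41.6 on component 3, and its levels of Pdxk (18.3 RPM, others at least 27.4), mt-Cytb (933 RPM, others at most 725) and Chil4 (66.5 RPM, others at most 18.4). PM-OVA replicate 1 stood above the other 3 PM-OVA libraries for mt-Nd2 (1038 RPM, others at most 373), mt-Cytb (2424 RPM, others at most 1098), Jchain (9574 RPM, others at most 5487) and the gene model Gm29170 (0.739 RPM, others at most 0.398). In PM-OVA replicate 2 this held for Mycbpap (14.1 RPM, others at most 9.20) and Ern2 (1.70 RPM, others at most 0.941). For Mycbpap, Ern2, mt-Nd2 and mt-Cytb the high PM-OVA library raised the group mean, while the other 3 PM-OVA libraries also lay above every Sham-OVA library.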

How the results depend on the processing

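The count of 0 called genes between PM-OVA and Sham-OVA held under all alternatives except 3, which gave 255 genes with an unadjusted p under 0.05 as the threshold, 1 (Ahcy) with all 4 groups in one limma fit and 1 (Pdxk) with DESeq2. The 255 genes at an unadjusted p under 0.05 became 404 without a filter, 114 with a mean of at least 5 RPM, 959 with all 4 groups in one fit, 927 with array weights, 567 with a replicate block and 553 with DESeq2, and 3171 with the 3 shallow libraries left out, a set of 4 Sham-OVA and 2 PM-OVA libraries chosen after seeing the data. With 1 library left out the count ran from 108 (without Sham-OVA replicate 1) to 736 (without Sham-OVA replicate 3), with 143 without Sham-OVA replicate 2, 157 without Sham-OVA replicate 4, 441, 117, 163 and 451 without PM-OVA replicates 1, 2, 3 and 4, and 0 genes called each time. The interaction gave 2 genes with DESeq2 (Pdxk, Mycbpap), 10 when Sham-OVA replicate 5 was left out and 1 (Mcpt2) without PM-OVA replicate 2, and from 0 to 10 over the libraries left out. The cause of these moves was not tested. The block on replicate numbers of the titles, which are not known to pair the libraries, called 0 genes, and not every library correlated best with its own number. Of 4023 values of 170 named genes under 24 alternatives, 3864 moved by no more than the SE, 152 moved more, 5 were of opposite sign although the reported value exceeded its SE, and 2 passed the threshold (Pdxk with DESeq2, Ahcy with all 4 groups). The sign differed for 196 of these values, of 61 genes, and 8 of 21 hallmark genes kept theirs throughout. The 24 genes without overlap also kept theirs, but they were chosen for their separation in these same libraries. Leaving libraries out could not change their sign, so this is no measure of their stability. The 5 beyond their SE were Camp (-0.24) and Wt1 (0.22) with the 3 shallow libraries left out, Creb3l1 (0.021) without PM-OVA replicate 4, and Kdm2b (-0.041) and Klf4 (-0.21) without PM-OVA replicate 1. Over the libraries left out their log2 fold changes ran from -0.43 to 0.021 for Creb3l1, from -0.041 to 1.19 for Kdm2b and from -0.21 to 1.84 for Klf4. The median of all genes shifted to -0.13 with array weights, -0.15 when Sham-OVA replicate 3 was left out, 0.11 without PM-OVA replicate 4 and 0.14 with the 3 shallow libraries left out, against 0.00. Depth limits Il4, Il5, Il13 and the mast cell proteases, which had a few reads in the shallow libraries.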
